A study of Mus musculus with 2 samples.

Results

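The cells described here are the non-cycling cells of cluster 6 in the Batf3-/- library, which number 189 of the 24343 cells of the series. They were taken by 3 deposited labels together, cluster 6, the Batf3-/- library and the phase call G1. They made up 26.0% (exact binomial 95% interval 22.8 to 29.3%) of the 727 Batf3-/- cells of cluster 6 and 1.56% (1.35 to 1.80%) of the 12119 cells of the Batf3-/- library. The study read transcripts and antibody-derived tags of single splenic cells, live MHCII+CD11c+ cells sorted after depletion of T and B cells and then stained with TotalSeq-A antibodies. The mice were 8-week-old female C57BL/6 mice, either wildtype (WT) or Batf3-/-, a germline knockout carried by every cell of the animal. Spleens of 6 mice were pooled for each genotype and the experiment was performed 1 time, so that each genotype is 1 library without a biological replicate. No test between groups was therefore possible, and intervals cover counting error only.

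Conventional dendritic cells (cDCs) present antigen to T cells and fall into a cDC1 and a cDC2 lineage. The cDC1 lineage is known for cross-presentation to CD8+ T cells and for its dependence on the transcription factors IRF8, ID2 and BATF3, and in the spleen it carries XCR1, CLEC9A and CD8α. The cDC2 lineage carries SIRPα and CD11b, primes CD4+ T cells and depends less on BATF3.

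The group was set beside 2026 WT cells of cluster 4 in G1, the resting cDC1 of the WT library, and beside 2733 cells of cluster 0 and 1389 cells of cluster 2 in G1, the cDC2 of the Batf3-/- library. The 538 Batf3-/- cells of cluster 6 in S or G2M served as the cycling cells of the same cluster. WT cluster 6 held only 13 cells in G1. In the comparison with WT cluster 4 the genotype, the library, the cluster and the source of the mice cannot be told apart. The study bought its WT mice from the Animal Resources Centre. Its Batf3-/- mice came from Jackson Laboratories and were bred in house. Clusters were built on the same transcripts, so that differences in transcripts between clusters are descriptions, whereas the antibody tags were not used for clustering.

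The WT library held 12224 cells and 122530055 unique molecular identifiers (UMIs), the Batf3-/- library 114517073, and single cells carried 741 to 37040. The 189 cells held 2657518 UMIs, with 13749 in the median cell (4868 to 31578) and 3135 detected genes in the median. Median depth was 15360 UMIs in WT cluster 4, 7206 in Batf3-/- cluster 0, 9401 in cluster 2 and 19986 in the cycling cells. Scrublet called 1 doublet among the 189 cells but 198 among the 2026 WT cluster 4 cells (9.77%). The main values against WT cluster 4 that moved without those cells are given without them as well. The calls used the same transcripts, so that leaving these cells out lowers cDC2 genes in WT cluster 4 in part through the selection. Whether the called cells were true doublets was not tested, and the study reports cDC2 surface features on some WT cDC1. The libraries shared 56 cell barcodes, of which 2 were among the 189 cells.

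All 189 cells carried the SingleR label for dendritic cells. A cell is in G1 when its S and G2M scores are both below 0, and the highest score in the group was -0.00197 while the lowest deciding score among the cycling cells was 0.000105. In 19 of the 189 cells a score lay within 0.02 of that limit. At least 1 UMI of Mki67, Top2a or Cdk1 was found in 38 of 189 cells (20.1%), against 452 of 538 cycling cells (84.0%). Marker lists of B cells, T cells and neutrophils were low in the group, at 31.6 UMIs per 1000000 (CPM) summed over 4 B cell genes (2 of them at 0), 4.52 CPM over 4 T cell genes (2 at 0) and 3.76 CPM over 6 neutrophil genes (2 at 0). The monocyte list was not low and is given further below. Summed levels over 5 erythroid genes were 13.2 CPM in the group and 186 CPM in WT cluster 4, and over 4 platelet genes 19.9 and 3.96 CPM. The 7 NK and ILC genes summed to 143 CPM in the group with 5 of them at 0, against 79.6 CPM in WT cluster 4, and nearly all of it came from Klrk1 (142 CPM), a gene that encodes the receptor NKG2D.

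The knockout was visible at the targeted gene. Batf3 (chr1:191097847-191108945, plus strand, GRCm38) gave 1 UMI in the 189 cells, or 0.376 CPM, whereas WT cluster 4 gave 237 CPM (7414 UMIs). The other Batf3-/- groups gave 1.62 CPM in cluster 0, 1.07 CPM in cluster 2 and 0.463 CPM in the cycling cells.

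The 4 genes that mark the group were all present and stood at different distances from the WT level. Irf8 (chr8:120736358-120756694, plus strand), the factor that specifies and maintains cDC1, was at 735 CPM in the group (exact Poisson 95% interval 703 to 768), 1978 CPM in WT cluster 4, 14.5 CPM in Batf3-/- cluster 0 and 113 CPM in cluster 2. The group was thus 2.69-fold below WT cDC1 and 50.6-fold above cluster 0. Id2 (chr12:25093799-25097140, minus strand), an inhibitor of E proteins required for cDC1, was at 826 CPM (792 to 861) against 997, 346 and 213 CPM in the same order, a log2 ratio to WT cluster 4 of -0.27 (95% interval -0.33 to -0.21).

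Cd24a (chr10:43578284-43584265, plus strand), a surface glycoprotein of cDC1, was at 176 CPM in the group and 177 CPM in WT cluster 4, with a log2 ratio of -0.01 (-0.15 to 0.13), against 11.2 and 23.5 CPM in Batf3-/- clusters 0 and 2. Cst3 (chr2:148871722-148875692, minus strand), which encodes the protease inhibitor cystatin C, was at 18072 CPM against 24238, 1834 and 3643 CPM. Each of the 4 markers was at least 2-fold higher in the group than in both mutant cDC2 clusters, and Irf8 alone was at least 2-fold below WT cDC1.

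**Figure D1:**
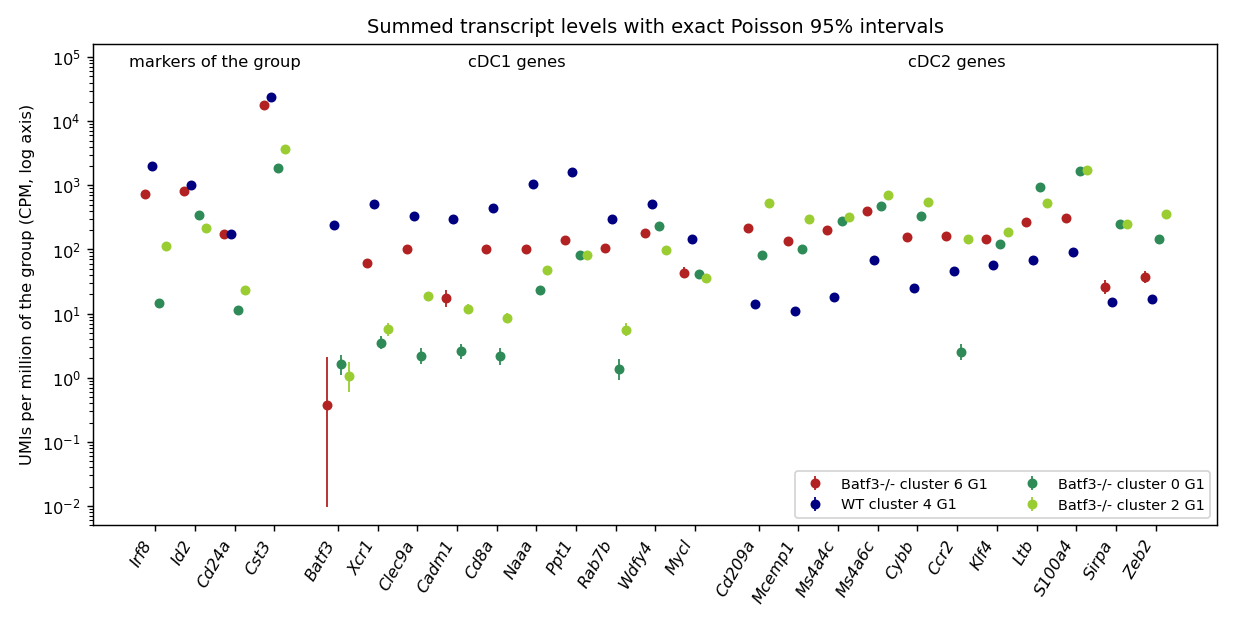
Summed levels in CPM (log axis) of the 4 marker genes, 10 cDC1 genes and 11 cDC2 genes in the 189 cells (red), WT cluster 4 (dark blue), Batf3-/- cluster 0 (dark green) and Batf3-/- cluster 2 (light green), all in G1, with exact Poisson 95% intervals as lines. Cd24a of the group lay at the WT cDC1 level (176 and 177 CPM), Xcr1 and Naaa lay far below it, and Cd209a and Cybb lay far above it.

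The other cDC1 genes separated the group from WT cDC1. Of 2400 genes whose mean over both groups reached 50 CPM, called measured here, 75 (3.12%) were at least 2-fold higher in the 189 cells than in WT cluster 4 and 96 (4%) at least 2-fold lower, and the median log2 ratio over these genes was 0.14. A gene low in one group reaches this mean only through the other, so that counts over the measured genes of a list are descriptions. Among 22 listed cDC1 surface and function genes, 18 reached 50 CPM and 17 of them were at least 2-fold lower, with a median log2 ratio of -1.92. Xcr1, the receptor for the chemokine XCL1, was at 61.3 CPM against 513 CPM in WT cluster 4, a log2 ratio of -3.06 (-3.29 to -2.84). Clec9a, the receptor for actin of dead cells, was at 103 against 331 CPM, a log2 ratio of -1.69 (-1.87 to -1.52). The remaining level of both genes was still above mutant cDC2, where Xcr1 was at 3.54 and 5.70 CPM and Clec9a at 2.21 and 18.7 CPM in clusters 0 and 2.

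The lowest ratios to WT cluster 4 were those of Gcsam and Batf3. Gcsam, a signalling protein, gave no UMI in the 189 cells and 105 CPM in WT cluster 4, and was at least 93.1-fold lower against a floor of 3 counts over the group. The integrin subunit gene Itgae, which encodes CD103, likewise gave no UMI and was at least 30.9-fold lower than the 34.9 CPM of WT cluster 4. Cd36, a scavenger receptor, followed at 1.88 CPM against 142 CPM, with 5 UMIs in the group. The low levels of Gcsam and Cd36 were not limited to the group. In cluster 0 Gcsam was at 0.0491 CPM in mutant and 0.957 CPM in WT cells and in cluster 2 at 0 and 1.33 CPM, and it gave 2 UMIs in the cycling Batf3-/- cells of cluster 6. Cd36 was at 0.0982 and 2.07 CPM in cluster 0 and at 1.78 and 6.51 CPM in cluster 2.

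Some genes of antigen handling in cDC1 were low as well. The lysosomal hydrolase genes Naaa and Ppt1 were at 100.1 against 1061 CPM and at 142 against 1620 CPM, log2 ratios of -3.41 (-3.59 to -3.23) and -3.51 (-3.66 to -3.36). Naaa and Ppt1 were the only 2 of 9 measured lysosomal proteases and partners that were at least 2-fold lower. The median log2 ratio over those 9 genes was 0.39. Cadm1, an adhesion molecule of cDC1, was at 17.3 against 302 CPM, and Apol7c, linked to rupture of the phagosome, at 45.9 against 878 CPM, although 90.2% of its 122 UMIs lay in 10 of the 189 cells and only 22 cells had any. Wdfy4, required for cross-presentation, was at 181 against 512 CPM, and Rab43, a small GTPase of the same process, at 39.9 against 111 CPM. These were the only 2 genes of 13 measured for the MHC class I route that were at least 2-fold lower, while H2-K1 (1049 against 1601 CPM) and B2m (1363 against 1610 CPM) lay closer to WT. None of the 11 measured genes of MHC class II presentation differed by 2-fold in either direction, with a median log2 ratio of -0.22.

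Among 6 measured cDC1 transcription factors, Irf8, Batf3 and Mycl were at least 2-fold lower. Mycl, a MYC family member, was at 43.6 against 146 CPM, and its level in the group was close to that of mutant cluster 0 (42.2 CPM). Zbtb46, a factor shared by all cDCs, was at 56.1 against 61.4 CPM, and Etv6, a repressor, at 61.3 against 72.7 CPM. The AP-1 genes Jun and Junb, which encode partners of BATF proteins, lay near the WT level. Jun was at 854 CPM in both groups and Junb at 427 against 461 CPM. Batf, which encodes a BATF protein itself, was at 24.1 against 17.6 CPM, below the limit for a measured gene.

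Genes of the cDC2 lineage were higher in the group than in WT cDC1. Of 23 listed genes of cDC2b cells and monocytes 12 were measured. Of these, 9 were at least 2-fold higher and Lgals3 alone was at least 2-fold lower, with a median log2 ratio of 1.78. Of 13 listed cDC2 surface and function genes 6 were measured and 5 of them were at least 2-fold higher. Genes such as Cd209a, Ms4a4c and Cybb reached 50 CPM only through the group. Their place among the higher genes follows in part from that limit. Cd209a, the lectin DC-SIGN, had the highest ratio of all measured genes, at 219 against 14.3 CPM, a log2 ratio of 3.94 (3.76 to 4.12). It exceeded mutant cluster 0 (82.9 CPM) and stayed below cluster 2 (525 CPM). The membrane protein genes Ms4a4c and Ms4a6c of the MS4A family were at 204 against 18.1 CPM and at 401 against 69.7 CPM. Over 7 monocyte marker genes, 1 of them at 0 in the group, the summed level was 2179 CPM in the group. It was 1696 CPM in WT cluster 4, 1190 CPM in mutant cluster 0 and 4236 CPM in cluster 2. Most of the sum in the group came from Plac8, with 4700 UMIs against 651 of Lyz2, the next largest. Of the 3 measured genes of this list Lyz2 alone was lower in the group than in WT cluster 4. The part of monocytes in these values was not tested.

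Of the phagocyte oxidase, which makes superoxide, Cybb, the catalytic subunit, was at 159 against 25.3 CPM. Cyba, Ncf1, Ncf4 and Rac2 lay closer to WT cDC1, with log2 ratios of 0.43, 0.30, 0.22 and 0.64. Cybb was still below mutant clusters 0 and 2 (329 and 546 CPM).

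Not every cDC2 gene was high. Sirpa, the defining receptor of cDC2, was at 26.0 CPM (69 UMIs) in the group, against 15.3 CPM in WT cDC1 and 246 and 251 CPM in mutant clusters 0 and 2. Zeb2, a repressor required for cDC2, was at 37.3 CPM against 16.7, 145 and 359 CPM. Irf4, a regulator of cDC2, gave only 17 UMIs (6.40 CPM), below both mutant clusters (24.8 and 21.4 CPM). Klf4, a factor of cDC2 and monocytes, was at 147 CPM against 58.0 CPM in WT cDC1 and lay inside the range of mutant cDC2 (122 and 186 CPM). Without the cells called doublets the ratios to WT cluster 4 were larger, which follows in part from how those cells were called. The log2 ratio was then 2.18 in place of 0.76 for Sirpa, 2.67 in place of 1.16 for Zeb2 and 1.51 in place of 1.34 for Klf4. It was 3.97 in place of 2.65 for Cybb, 4.77 in place of 3.94 for Cd209a, 4.46 in place of 3.50 for Ms4a4c and 2.97 in place of 2.52 for Ms4a6c. Without doublets 9 of 12 genes of cDC2b cells and monocytes and 5 of 6 cDC2 surface and function genes were at least 2-fold higher, as with them, with median log2 ratios of 2.55 in place of 1.78 and 2.27 in place of 1.67, whereas of 3 measured cDC2a genes 2 were higher (Ffar2 and Siglecg) in place of 1 (Siglecg). Of the cDC1 surface and function genes 18 of 19 were then at least 2-fold lower.

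The 2 mutant cDC2 clusters differed from the group in different genes. Against cluster 0, of 2558 measured genes 84 (3.28%) were at least 2-fold higher and 188 (7.35%) at least 2-fold lower in the 189 cells. Of 12 listed cDC2a genes 6 reached 50 CPM and were among the lower ones, including Dtx1, an E3 ligase of the Notch pathway, at 7.90 against 201 CPM, and Cd7 at 39.9 against 375 CPM. Dtx1, Cd7 and Ppp1r14a (28.2 against 295 CPM) reached that mean only through cluster 0, so that their place among the lower genes follows in part from the limit. Ifitm1, an interferon-induced membrane protein, had the lowest ratio, at 8.28 against 321 CPM. The highest ratio was that of Rab7b, a small GTPase of late endosomes, at 106 against 1.37 CPM, followed by Ccr2, the receptor for the chemokine CCL2, at 160 against 2.55 CPM.

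Against cluster 2, of 2429 measured genes 49 (2.02%) were at least 2-fold higher and 96 (3.95%) at least 2-fold lower. Ccr2 was not among them, at 160 against 146 CPM with a log2 ratio of 0.13 (-0.03 to 0.28). Of 23 listed genes of cDC2b cells and monocytes 14 were measured and 8 of these were at least 2-fold lower. Among them were the lysozyme gene Lyz2 at 245 against 2839 CPM and Csf1r, the receptor for M-CSF, at 8.28 against 160 CPM. Csf1r and Clec4a3 (5.64 against 143 CPM) reached the 50 CPM mean only through cluster 2. Their place among the lower genes thus follows in part from the limit. Lyz2 was nevertheless above cluster 0 (16.2 CPM) and near WT cDC1 (319 CPM). Among the measured genes the chemokine gene Ccl9 had the lowest ratio, with 3 UMIs in the group and 151 CPM in cluster 2, a log2 ratio of -7.06 (-9.34 to -5.51). The C-type lectin gene Mgl2, whose mean over both groups was below 50 CPM, gave no UMI in the group and was at least 70.4-fold below cluster 2.

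Few genes lay outside the range set by the 3 reference groups. Of 2484 genes whose mean over the 4 groups reached 50 CPM, 4 (0.161%) were at least 2-fold higher than in each reference and 8 (0.322%) at least 2-fold lower, a count made after the values were seen. The higher ones were S100a10, a calcium-binding protein family member, at 403 CPM against at most 193 CPM, Tagln2, an actin-binding protein, at 392 against at most 193 CPM, Cldnd1 at 210 against at most 82.8 CPM, and Fdps, an enzyme of isoprenoid synthesis, at 153 against at most 67.5 CPM. They were not particular to the 189 cells, since the cycling Batf3-/- cells of cluster 6 gave 328 CPM of S100a10, 750 CPM of Tagln2, 218 CPM of Cldnd1 and 176 CPM of Fdps. The 26 Batf3-/- cells of cluster 4 in G1 gave 63.8, 202, 211 and 166 CPM in the same order, and the cycling cells of WT cluster 6, which carry Batf3, 92.2, 577, 110 and 142 CPM. The 8 lower ones included Batf3 itself, which reached the mean only through WT cluster 4. Its 0.376 CPM rested on 1 UMI and does not set the group apart from mutant clusters 0 and 2 (1.62 and 1.07 CPM). Others were the nonclassical MHC class I genes H2-Q6 and H2-Q7 and the chemokine gene Ccl5 (35.7 CPM against at least 101 CPM). Tgfbi, a matrix protein, was also among them (36.5 against at least 114 CPM). The cycling Batf3-/- cells of cluster 6 were likewise below each reference, at 45.4 CPM of H2-Q6, 102 CPM of H2-Q7, 22.6 CPM of Ccl5 and 28.3 CPM of Tgfbi, and the 26 Batf3-/- cells of cluster 4 gave 97.1, 216, 38.8 and 41.6 CPM. The cycling WT cells of cluster 6 gave 111, 297, 63.8 and 135 CPM in the same order, below each reference for Ccl5 alone.

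To place the group between the lineages, 27 genes at least 4-fold higher in WT cluster 4 than in WT clusters 0 and 2 (cDC1-high genes) and 64 genes at least 4-fold lower (cDC2-high genes) were each put on a log2 scale on which the mean of the WT cDC2 clusters is 0 and WT cDC1 are 1. The median position of the group was 0.51 for the cDC1-high genes (quartiles 0.28 and 0.72) and 0.54 for the cDC2-high genes (0.33 and 0.69). Mutant clusters 0 and 2 lay at -0.09 and 0.04 for the first set and at 0.00 and 0.04 for the second. The cycling Batf3-/- cells of cluster 6 lay at 0.43 and 0.63, and the cycling WT cells of cluster 6 at 0.87 and 1.09. The 13 WT cells of cluster 6 in G1, of which 5 were called doublets, lay at 0.82 and 0.57. Both medians of the group were thus between the ends of the scale. Without the cells called doublets the cDC2-high median was 0.44 over the same 64 genes and 0.48 over the 80 genes then chosen, and with genes chosen at 8-fold the cDC1-high median was 0.60.

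The position differed widely from gene to gene. Among the cDC1-high genes, 7 of 27 lay below 0.25, 15 from 0.25 to 0.75 and 5 above. The lowest were Cd36 (-0.15), Apol7c (-0.06), Trim35 (0.10), Ppt1 (0.13) and Txndc15 (0.20), and the highest were Rab7b (0.76), Cst3 (0.88), Pafah1b3 (0.95), Cxcl9 (0.99) and Cd24a (1.00). Among the cDC2-high genes, 8 of 64 lay below 0.25, at the cDC2 end, 42 from 0.25 to 0.75 and 14 above. Among those at the cDC2 end were Mcemp1 (-0.01), Pou2f2 (0.05), Cd209a (0.08) and Ddit4 (0.10). At the cDC1 end were Gngt2 (0.93), Rtp4 (1.09), Acp5 (1.10), H2-Eb2 (1.28) and Ear2 (1.72), of which Rtp4 and Ear2 rested on 9 and 10 UMIs in the group.

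**Figure D2:**
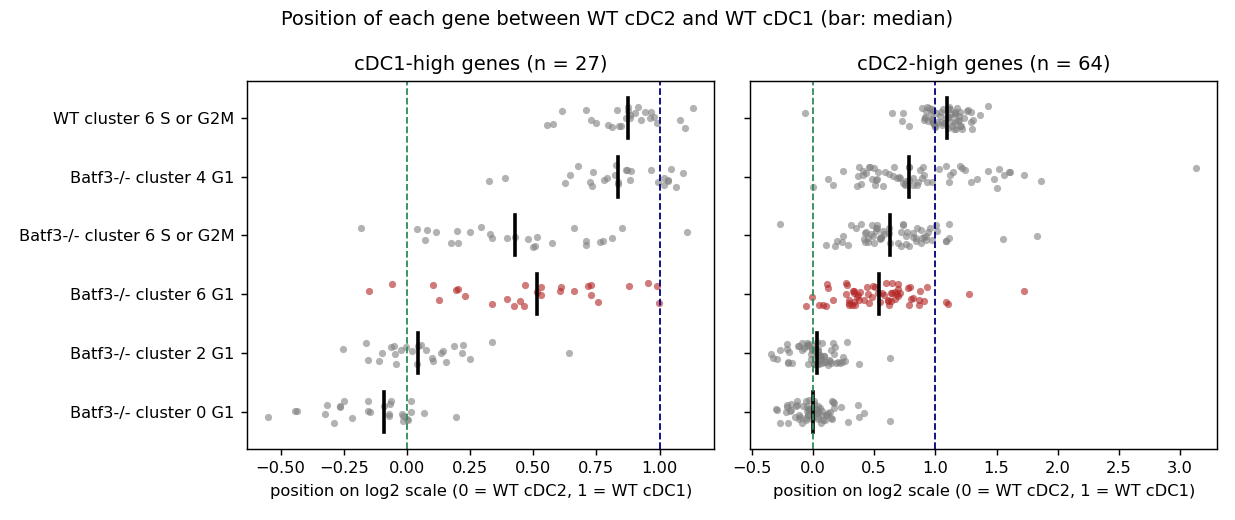
Position of the 27 cDC1-high genes (left) and the 64 cDC2-high genes (right) between WT cDC2 (0) and WT cDC1 (1) on a log2 scale, 1 point per gene, with the median as a bar, for the 189 cells (red) and 5 other groups (grey). The medians of the 189 cells were 0.51 and 0.54, between the mutant cDC2 clusters near 0 and the cycling WT cells of cluster 6 at 0.87 and 1.09.

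BATF3 acts as a heterodimer with JUN proteins at AP-1 motifs, TGANTCA, and with IRF8 at composite motifs. The RefSeq promoters (GRCm38.p6, 250 bases before to 50 after each start) covered 20 of the 27 cDC1-high genes and 48 of the 64 cDC2-high genes. On either strand TGANTCA stood in promoters of 2 of 20 cDC1-high genes (10.0%) and 7 of 48 cDC2-high genes (14.6%), against 2425 of 27025 genes in the table (8.97%). The composite AP-1 and IRF elements AICE2 and AICE1, which both contain TGANTCA, were in promoters of 38 and 36 genes of the table and in none of the covered genes of either set. The 3 matches of the first set, in 2 genes, are shown. Cxcl9 and P2ry14 lay nearer the WT cDC1 end (positions 0.99 and 0.73), Cxcl9 through few cells. Shown as well are the matches of Mcemp1 (-0.01) and Cybb (0.34), which lay nearer the cDC2 end. The other 5 cDC2-high genes with the motif, not shown, lay at 0.48 (Clec4a2), 0.60 (Fam107b), 0.69 (Cyp4f16), 0.69 (Zeb2) and 0.87 (Mmp12), so that genes with the motif were found toward both ends. The motif is in capitals with 10 bases on each side, read 5′ to 3′ on the strand of the gene, and a match is not evidence of binding.
Cxcl9, chr5:92328032-92328058, minus strand: tccaacacagTGACTCAatagaactca
P2ry14, chr3:59153678-59153704, minus strand: gctgtttgtaTGACTCAtggagggaac
P2ry14, chr3:59131456-59131482, minus strand: taaaaccatgTGAATCAaaactttaaa
Mcemp1, chr8:3665755-3665781, plus strand: gtaatctacgTGAATCAaccaagcaga
Cybb, chrX:9469447-9469473, minus strand: tacttgtgacTGAATCAcaagatcttt
The Cxcl9 and Mcemp1 matches lay 31 and 3 bases after the start, the others 139 to 202 bases before it.

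Transcripts of both sets were found in the same cells, which held for most cells of the references as well. After each cell was thinned to 2000 UMIs, which kept all 189 cells, the cDC1-high genes gave 42 UMIs in the median cell (6 to 97), against 73 in WT cluster 4 and 4 and 7 in mutant clusters 0 and 2. The cDC2-high genes gave a median of 11 (1 to 33), against 2, 32 and 35. Most of the first sum came from Cst3, and without it the median was 6 (0 to 43) against 25, 1 and 2. With Cst3 the lower quartile of cDC1-high UMIs was 2 in mutant cluster 0 and 4 in cluster 2, and without it 0 and 1. The lower quartile of cDC2-high UMIs was 1 in WT cluster 4. Holding both sets was thus not particular to the group. The cells of the group overlapped with both references in each sum. The cDC2-high set was not specific to cDC2, since its summed level was 6298 CPM in the group but 12705 CPM in G1 cells of Batf3-/- cluster 13, which the study labels as NK, ILC and T cells, and 10336 CPM in those of cluster 14, where 14 pDC genes summed to 15681 CPM.

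With Cst3, 181 of 189 cells (95.8%, 91.8 to 98.2%) exceeded the 95th percentile of WT cDC2 cells in cDC1-high UMIs, and without Cst3 70 cells did (37.0%, 30.1 to 44.3%). For the cDC2-high genes, 79 cells (41.8%, 34.7 to 49.2%) exceeded the 95th percentile of WT cDC1 cells, which was 13 UMIs. That limit depended on the cells called doublets in WT cluster 4, and without them 166 of 188 cells (88.3%, 82.8 to 92.5%) exceeded it. The rise follows in part from the calls, which used the same transcripts. The share of the group inside the WT cDC1 range for both sets was 32.3%, but 4.79% without doublets and 3.70% without Cst3, whereas only 2.12% lay inside the WT cDC2 range for both sets (10.1% without Cst3). Within the group the 2 sums, without Cst3, had a Pearson r of -0.17 across 189 cells, which share 1 library and a fixed total.

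**Figure D3:**
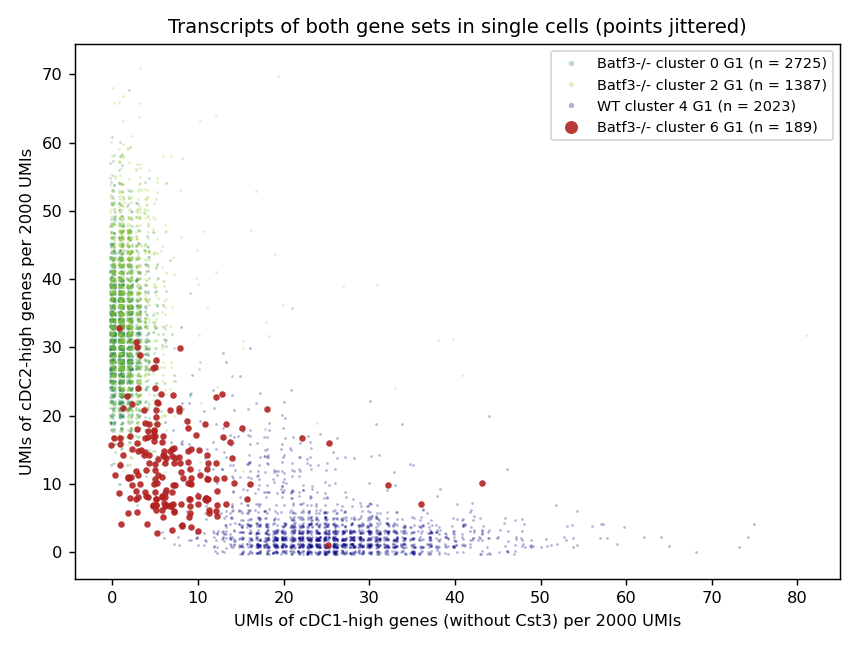
UMIs of the 26 cDC1-high genes without Cst3 (x axis) and of the 64 cDC2-high genes (y axis) in single cells thinned to 2000 UMIs, for the 189 cells (red) and the cells of WT cluster 4 (blue), Batf3-/- cluster 0 (dark green) and Batf3-/- cluster 2 (light green), with points jittered. The red cells, with medians of 6 and 11 UMIs, lay in the corner between WT cDC1 (25 and 2) and mutant cDC2 (1 and 32, 2 and 35).

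Shares of cells with a transcript followed the summed levels. At 2000 UMIs per cell, Irf8 was found in 62.4% (55.1 to 69.4%) of the group, 95.9% of WT cluster 4, 2.64% of mutant cluster 0 and 16.9% of cluster 2. Naaa was found in 20.1% of the group against 82.3%, 4.33% and 8.94%, and Xcr1 in 10.6% (6.58 to 15.9%) against 60.6%, 0.624% and 0.577%. Cd209a was found in 28.0% (21.8 to 35.0%) against 1.98%, 12.3% and 46.0%, and Cybb in 27.5% (21.3 to 34.5%) against 3.56%, 45.8% and 62.3%. Clec9a was found in 19.05% (13.7 to 25.4%) against 49.7%, 0.514% and 2.74%. The shares of Xcr1 and Clec9a thus stood above those in mutant cDC2. Among 114 cells of the Batf3-/- library with a SingleR label for lymphocytes (116 before thinning, median depth 4802 UMIs), Cd209a was found in 2.63% (0.546 to 7.50%) and Cybb, which B cells also express, in 12.3% (6.88 to 19.7%), whereas Xcr1 and Clec9a were in 0 of 114 cells, which allows up to 3.18%. Irf8, which B cells also express, was found in 24.6% (17.0 to 33.5%) of these cells. All 5 shares were below the shares in the 189 cells, and the part of free RNA in those shares was not tested. Unthinned shares, at the median depths given above, were 93.7% for Irf8, 38.6% for Xcr1, 69.8% for Cd209a and 78.8% for Cybb in the group.

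The antibody tags gave a readout that the clusters did not use. The 11 tag rows carry no names, and a row was assigned to CD8a and another to CD4 because row and gene were each other's best match across cells in both libraries (Pearson r for CD8a 0.70 in 11427 WT and 0.49 in 11392 Batf3-/- cells). A further row was the best row of both Cd24a and Xcr1 in both libraries and is called CD24 or XCR1, a choice made after the data were seen. Its r was 0.61 with Cd24a and 0.69 with Xcr1 in WT cells but 0.36 and 0.13 in Batf3-/- cells. In the WT library it was also the best row of Clec9a (r 0.61), which encodes CD370, whereas in the Batf3-/- library Clec9a matched the CD8a row best. The target of the row therefore stays uncertain, and CD370 cannot be told apart from the 2 named. In the 189 cells its median was 126 counts with a Cd24a UMI and 98.5 without, and 120 with an Xcr1 UMI and 114.5 without. The row thus gives no separate level of XCR1 or CD370. Another row was the best row of Itgam, Sirpa and Adgre1 in both libraries and is not reported, so that no tag of CD11b or CD172a is given. CD8a tags had a median of 46 counts per cell in the group (quartiles 38 and 61, range 16 to 210), against 123 in WT cluster 4 and 41 in both mutant cDC2 clusters. The 95th percentile of mutant cDC2, 61 counts, was exceeded by 47 of the 189 cells (24.9%, 18.9 to 31.7%), 83.8% of WT cluster 4 and 4.32% and 5.18% of mutant clusters 0 and 2. This limit is a raw count, and the group carried more tags in all than clusters 0 and 2 (medians of 535 against 466 and 471). The part of that in the 24.9% was not tested, and ratios as a share of all tags are given below.

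The other tags behaved differently. The CD24 or XCR1 row had a median of 116 counts (106 to 131) in the group and 130 (127 to 133) in WT cluster 4, against 31 and 32 in the mutant cDC2. Of the 189 cells 73.0% (66.1 to 79.2%) exceeded the 95th percentile of mutant cDC2, against 84.8% of WT cluster 4. The CD4 tag had a median of 30 counts, between WT cluster 4 (27) and mutant clusters 0 and 2 (39 and 33). Cells of the group carried fewer tags in all than WT cluster 4 (median 535 against 694), and as a share of all tags the CD24 or XCR1 row was higher in the group than in WT cluster 4 (21.99% against 18.32%) while CD8a remained lower (9.17% against 18.30%).

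**Figure D4:**
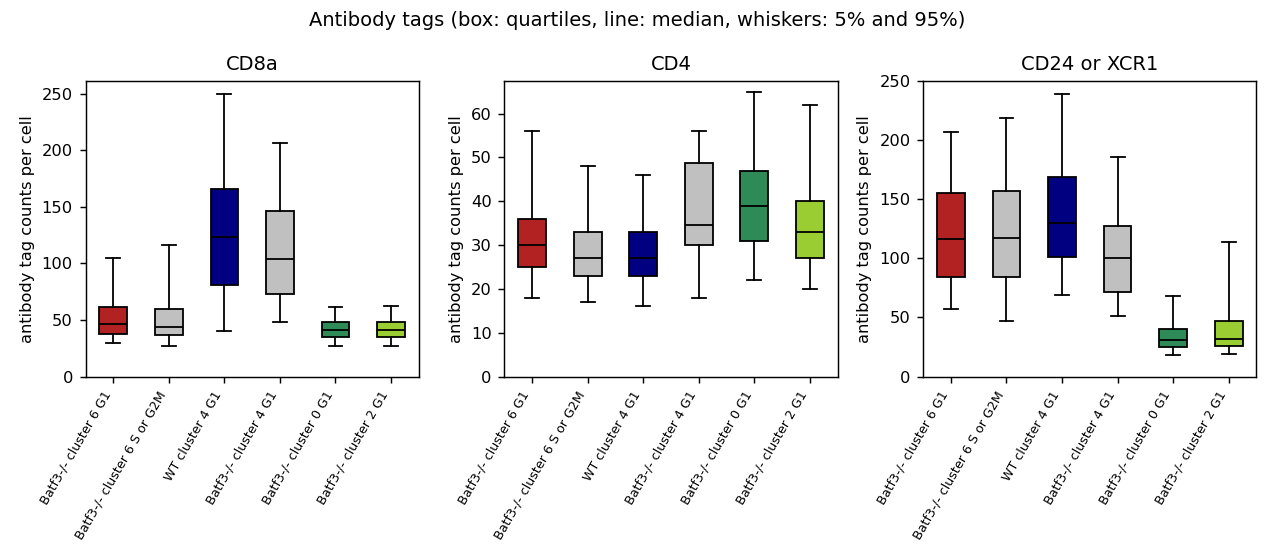
Antibody tag counts per cell for CD8a, CD4 and the row matched to CD24 or XCR1 in 6 groups, as boxes of the quartiles with the median as a line and whiskers at the 5% and 95% points. The 189 cells (red) lay near mutant cDC2 (greens) for CD8a, with medians of 46 and 41, and near WT cluster 4 (blue) for CD24 or XCR1, with medians of 116 and 130.

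The 189 cells were not alike in CD8a. Cd8a transcripts were found in 73 cells, whose CD8a tags had a median of 55 counts, against 44.5 in the 116 cells without. The 47 cells above the tag limit held 215 CPM of Cd8a against 56.9 CPM in the other 142 cells, and 103 against 45.5 CPM of Xcr1, a log2 ratio of 1.18 (0.72 to 1.64). They held less Ccr2 (77.2 against 190 CPM) and less of each marker of the group. Irf8 was at 546 against 806 CPM, Id2 at 638 against 896, Cd24a at 134 against 191 and Cst3 at 17151 against 18418 CPM. Naaa was lower too (68.9 against 112 CPM), whereas Ppt1 (170 against 132 CPM) and Cadm1 (27.6 against 13.5 CPM) were higher. The cDC2-high sum was lower (5520 against 6590 CPM, a log2 ratio of -0.26, -0.31 to -0.20). The cDC1-high sum without Cst3 had a log2 ratio of -0.05 (-0.11 to 0.01, at 3765 against 3896 CPM). Median depth was 14558 UMIs and 601 tags in the 47 cells and 13344 UMIs and 516 tags in the others, and the part of depth in these differences was not tested.

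The chemokine genes Cxcl9 and Cxcl10, whose products attract CXCR3+ T cells, came from few cells. Cxcl9 was at 610 CPM in the group and 626 CPM in WT cluster 4, but 83.3% of its 1620 UMIs lay in 10 of the 189 cells and 48 cells had any. Cxcl10 was at 106 against 54.1 CPM, with 94.7% of its 281 UMIs in 10 cells. Both genes were found together in 14 cells, and 7 of the 10 cells with most Cxcl9 had Cxcl10. The levels of these genes are thus those of a small subset, whereas the top 10 cells held 18.8% of the UMIs of Irf8 and 25.9% of those of Cd209a.

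**Figure D5:**
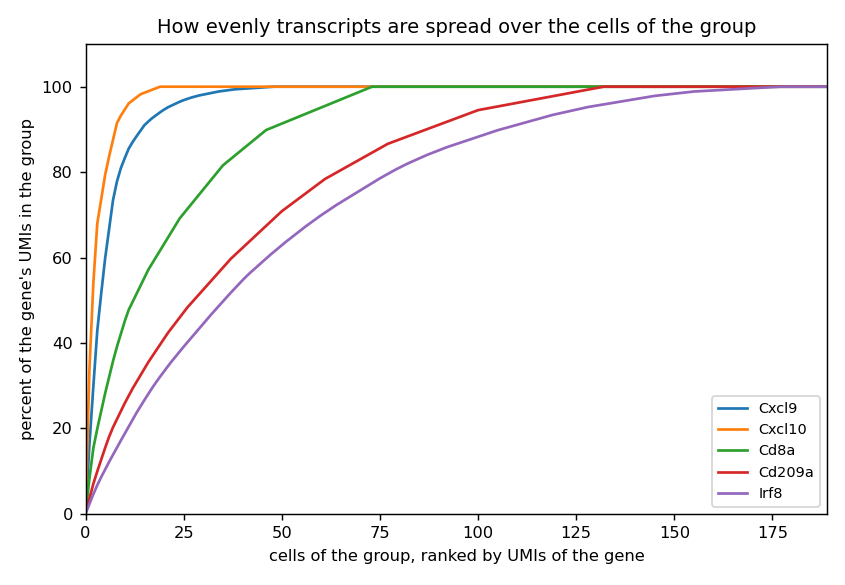
Cumulative percent of the UMIs of 5 genes (Cxcl9, Cxcl10, Cd8a, Cd209a and Irf8) in the group (y axis) over the 189 cells ranked by their UMIs of that gene (x axis). Cxcl9 and Cxcl10 reached 83.3% and 94.7% within 10 cells, whereas Irf8 reached 18.8%.

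The cycling cells of the same cluster and library had been set apart by their phase scores, so that lower proliferation genes in the group follow from the selection. Of 2537 measured genes, 12 (0.473%) were at least 2-fold higher and 131 (5.16%) at least 2-fold lower. All 17 measured proliferation genes outside the lists used for phase calls were among the lower ones, with a median log2 ratio of -3.40. Among them was Rrm2, a subunit of ribonucleotide reductase, at 1.13 against 122 CPM. Against WT cluster 4 in G1, 4 genes of this list were measured and were higher in the group, with log2 ratios of 0.31 to 0.65 (median 0.60). The median was 0.24 against mutant cluster 0 and -0.08 against cluster 2. Against the cycling cells none of the measured cDC1 or cDC2 transcription factors differed by 2-fold, and neither did any of the 12 measured genes of cDC2b cells and monocytes. Of 11 measured cDC1 surface and function genes only the tetraspanin gene Cd81 did, at 158 against 61.4 CPM. The higher genes also included Cxcl9 (610 against 58.4 CPM), Cxcl10 (106 against 22.4 CPM), P2ry14, a receptor for UDP-sugars (105 against 44.5 CPM), and the lymphotoxin gene Ltb (267 against 128 CPM). Irf8 was somewhat lower in the non-cycling cells (735 against 992 CPM) and Cd209a higher (219 against 120 CPM).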

How the data were processed

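Single splenic MHCII+CD11c+ cells of pooled WT and Batf3-/- mice were profiled with the 10x Genomics v3 kit and TotalSeq-A antibodies. According to the submitters' processing notes the authors used bcl2fastq 2.2.0, Cell Ranger with GRCm38 and Seurat 3.0.5, and per the study's methods kept cells with 500 to 5000 genes, at most 20% mitochondrial and at most 50% ribosomal UMIs. The deposited raw tables hold UMI counts of transcripts and tags. The normalized tables the authors deposited are on a natural log scale and served only as an alternative for the tags. The authors also deposited the mitochondrial and ribosomal part of a cell as a fraction, and an S and a G2M score behind each phase call. Clusters, phases and SingleR labels were used as deposited. UMI totals recomputed from the counts equalled the deposited totals in 24343 of 24343 cells.

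Levels are the summed UMIs of a group per 1000000 (CPM) with exact Poisson 95% intervals. Ratios are log2 ratios whose exact intervals treat the UMIs of a gene as split binomially between the groups, and shares have Clopper-Pearson 95% intervals. A gene with no UMI was set at a floor of 3 counts over the group. With 1 library per genotype no test, p-value or replicate error could be given, although each library pools 6 mice. Genes counted as measured reached 50 CPM in the mean of the groups compared. Those named are members of the lists, genes among the 10 highest and 10 lowest ratios of each comparison (with at least 20 UMIs in both groups together) and the 5 highest and lowest positions, of which 1 gene is not reported here. Positions used log2(CPM + 1). For cells, UMIs were thinned to 2000, leaving out 3 cells of WT cluster 4 and 8 and 2 of mutant clusters 0 and 2. Doublets were called per library with Scrublet in scanpy 1.11.5 at an expected rate of 0.1. Gene positions are from GENCODE M21 (457 of 458 genes found), on the authors' build. The members and lists were chosen with earlier results of these data known. Python 3.11.15 with numpy 2.4.6, scipy 1.17.1 and pandas 2.3.3 was used. Intervals, thinning and positions were tested on simulated data. Alternatives for the total, the doublets, the minimum level, the fold, the thinning depth, the cDC2 end of the scale and the tag unit were tried. List counts without doublets and shares in lymphocytes were added after the data were seen.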

Additional observations from a re-analysis of the deposited data

How the results depend on the processing

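No paired analysis was possible because each genotype has 1 library, and for the same reason no library could be left out. Each count of genes stayed within 1.5 times of its value when doublets were left out, when only cells with at least 5000 UMIs entered and when CPM were averaged per cell. Counts at a fold of 4 in place of 2 were, higher and lower, 20 and 23 against WT cluster 4, 24 and 44 against cluster 0, 9 and 23 against cluster 2, and 2 and 47 against the cycling cells. With a mean of at least 20 CPM they were 152 and 195, 188 and 373, 109 and 182, and 42 and 301. Without mitochondrial and ribosomal genes in the total, the higher genes were 119 against WT cluster 4, 140 against cluster 0 and 30 against the cycling cells. In cells without Mki67, Top2a and Cdk1 the counts against the cycling cells were 4 and 21, a setting that leaves out most of the cycling cells by construction.

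The median position of the cDC1-high genes was 0.45 with genes chosen at 2-fold, 0.60 at 8-fold, 0.43 at 20 CPM and 0.45 with cluster 2 alone as cDC2, and that of the cDC2-high genes without doublets 0.48 over 80 newly chosen genes and 0.44 over the same 64 genes, the latter added after the data were seen. The share of cells above the WT cDC2 limit was 37.0% without Cst3, an alternative added after the data were seen. The share above the WT cDC1 limit for cDC2-high genes was 29.6% at 1000 UMIs and 88.3% without doublets. The share inside the WT cDC1 range was 4.79% without doublets and 3.70% without Cst3, and inside the WT cDC2 range 0.532% at 5000 UMIs and 10.1% without Cst3.

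As a share of all tags of a cell, the ratio of medians of the group to WT cluster 4, cluster 0 and cluster 2 was 0.50, 1.04 and 1.06 for CD8a, 1.41, 0.67 and 0.80 for CD4 and 1.20, 3.28 and 3.13 for CD24 or XCR1. The last row reversed against WT cluster 4 as a share, and the cause was not tested. The deposited normalized value was higher in the group too (difference 0.13), but it is scaled within each library, as medians of 31 counts in mutant and 34 in WT cluster 0 became 0.571 and 0.492, so its sign between libraries is no support for the reversal.

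Shares with a transcript moved with depth. At 1000, 5000 and unthinned UMIs they were 41.3, 78.2 and 93.7% for Irf8, 13.2, 38.8 and 68.8% for Clec9a, 6.35, 21.8 and 38.6% for Xcr1, 21.7, 52.1 and 69.8% for Cd209a, 10.6, 45.2 and 66.1% for Ccr2, and 14.8, 48.4 and 78.8% for Cybb.

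Of 364 alternative ratios of 16 single genes, 291 stayed inside their counting interval, 68 moved outside it and 5 reversed. Of the 68, 14 came from CPM averaged per cell and 13 from cells without Mki67, Top2a and Cdk1. Another 6 came from the total without mitochondrial and ribosomal genes and 5 from leaving out doublets. With WT clusters 0, 2 and 6 in G1 as the reference 11, 9 and 10 moved. The 5 reversed ratios were each against WT cluster 6 in G1, of whose 13 cells 5 were called doublets. These were Id2 (0.46), Cst3 (0.066), Ccr2 (-0.93), Sirpa (-0.62) and Mki67 (-0.40).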

Other observations

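Cluster 4, the resting cDC1 cluster, held 26 Batf3-/- cells in G1. Their level of Irf8 was 1295 CPM, between the 189 cells of cluster 6 (735 CPM) and WT cluster 4 (1978 CPM), and Xcr1 was at 252 CPM against 61.3 and 513 CPM. Naaa was at 175 CPM, nearer to the 189 cells (100.1 CPM) than to WT cluster 4 (1061 CPM). Cd8a was at 532 CPM, above both, and the CD8a tag had a median of 103.5 counts (interval of the median 76 to 138), against 46 in the 189 cells. Over the cDC1-high genes their median position was 0.84 and over the cDC2-high genes 0.78. None of these 26 cells was called a doublet.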
